A study of Mus musculus with 10 samples.

Results

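Glutamate and GABA (gamma-aminobutyric acid) receptor subunits were examined in mouse small cell lung cancer, a tumor of neuroendocrine character. The genes were chosen by symbol: the AMPA (Gria), kainate (Grik), NMDA (Grin), delta (Grid) and metabotropic (Grm) glutamate receptor genes, the GABA-A receptor genes (Gabr, including rho) and the GABA-B receptor genes (Gabbr). This rule found 47 genes among the 35288 in the table. They comprised 4 AMPA, 5 kainate, 7 NMDA, 2 delta, 8 metabotropic glutamate, 19 GABA-A and 2 GABA-B genes.

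The 10 libraries came from 6 mice and fell into 4 groups. Liver metastases (n = 2) and lung tumors (n = 3) came from RPR2;Nfibf/f mice (hereafter Nfib-floxed), and liver metastases (n = 2) and lung tumors (n = 3) from RPR2 mice. All groups share the RPR2 background, in which the tumor suppressors Rb1, Trp53 and Rbl2 are lost in lung cells, and Nfib-floxed mice also carry conditional alleles of Nfib, a transcription factor gene. The labels give neither the agent or promoter that delivers Cre, nor the part of Nfib that is floxed, nor the age of the mice. Tissue was macrodissected from mice at morbidity, so each library holds tumor cells with the host cells around them. Every metastasis was taken from a mouse that also gave a lung tumor.

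Glutamate and GABA are the main excitatory and inhibitory transmitters of the brain. AMPA, kainate and NMDA receptors are cation channels built of several subunits and opened by glutamate, and GABA-A receptors are chloride channels opened by GABA. Metabotropic glutamate receptors and GABA-B receptors signal through G proteins. Pulmonary neuroendocrine cells share part of their expression program with neurons, and GABA signaling has been described in airway epithelium.

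Levels are TPM, transcript abundances scaled to the same library total and by gene length, so levels of different genes may be compared. TPM keeps no read depth, so the depth behind each value is unknown. A log2 change is the difference between group means on the log2(TPM + 1) scale, given ± its standard error. It comes from limma, a linear model fitted to the 15503 genes that averaged 1 TPM or more over the libraries. Passing means an adjusted p (Benjamini-Hochberg) under 0.05. The pseudocount of 1 understates the changes of low genes. Of the 47 subunit genes 23 reached that mean and were tested, and 24 were not. The filter lay between Gabra5 at 0.993 TPM and Grm7 at 1.32 TPM. Grik2, Grik3 and Grm7 reached it only through the group in which each was highest.

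Several facts of the libraries bear on what follows. Nfib had 46.1 and 41.3 TPM in Nfib-floxed metastases and 62.8 and 643 TPM in RPR2 metastases. It had 38.6, 38.0 and 26.5 TPM in Nfib-floxed lung tumors, against 85.3, 28.3 and 118 TPM in RPR2 lung tumors. A whole-gene level need not show the loss of a floxed part. Across genes the closest library to the Nfib-floxed metastasis of JHK1398 was the RPR2 lung tumor of JHK1373 (r = 0.932). It reached 0.916 with its group mate and 0.809 with its own mouse's lung tumor. This was not particular to it. The Nfib-floxed lung tumors of JHK997 and JHK1398 were also closest to an RPR2 lung tumor (0.907 and 0.8865). That of JHK1399 was closest to its own mouse's metastasis (0.909), and the pair of JHK1394 reached 0.771. Calls between the metastases are also given without the JHK1398 metastasis, as are the values of Gria2, Gabra4 and Grin3a. Of 10 neuroendocrine markers 9 averaged at least 1 TPM, with Insm1 at 102 to 339 TPM, while Neurod1 stayed at or below 0.23 TPM in every library. Their sum was lowest in RPR2 metastases (2420 and 3680 TPM), against 7601 and 60902 TPM in Nfib-floxed metastases. Lung tumors had 9152 to 74546 TPM (Nfib-floxed) and 11815 to 21613 TPM (RPR2). Calca had 545 and 1410 TPM in RPR2 metastases and at least 5470 TPM elsewhere. Chgb and Syp were also lowest in both RPR2 metastases, while Dll3 and Ncam1 were highest in that of JHK1394. Transcripts of club cells, secretory cells of the airway, were most abundant in the lung tumors of JHK1398 (Nfib-floxed, 55984 TPM over 5 markers) and JHK1394 (RPR2, 60565 TPM).

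The receptor repertoire was narrow. Of the 47 genes 13 were below 1 TPM in every library, and 6 were at 1 TPM or more in all 10. Among these 6 were Grik5, Gabrq, Gabbr1 and Grin1. By mean level over the 10 libraries Grik5 (63.2 TPM) and Gabrq (53.9 TPM) were among the highest, and Grik5 was above 91.6% of all genes in the table. Gabbr1, Grin1, Gria2, Gabrp and Grin2d followed with means of 37.6, 26.5, 20.8, 15.2 and 10.1 TPM. The sum over all 47 genes was 252 and 331 TPM in Nfib-floxed metastases and 290 and 452 TPM in RPR2 metastases. It was 499, 281 and 511 TPM in Nfib-floxed lung tumors and 310, 320 and 301 TPM in RPR2 lung tumors. These sums overlap between the groups, and the makeup is given below by gene.

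**Figure D1:**
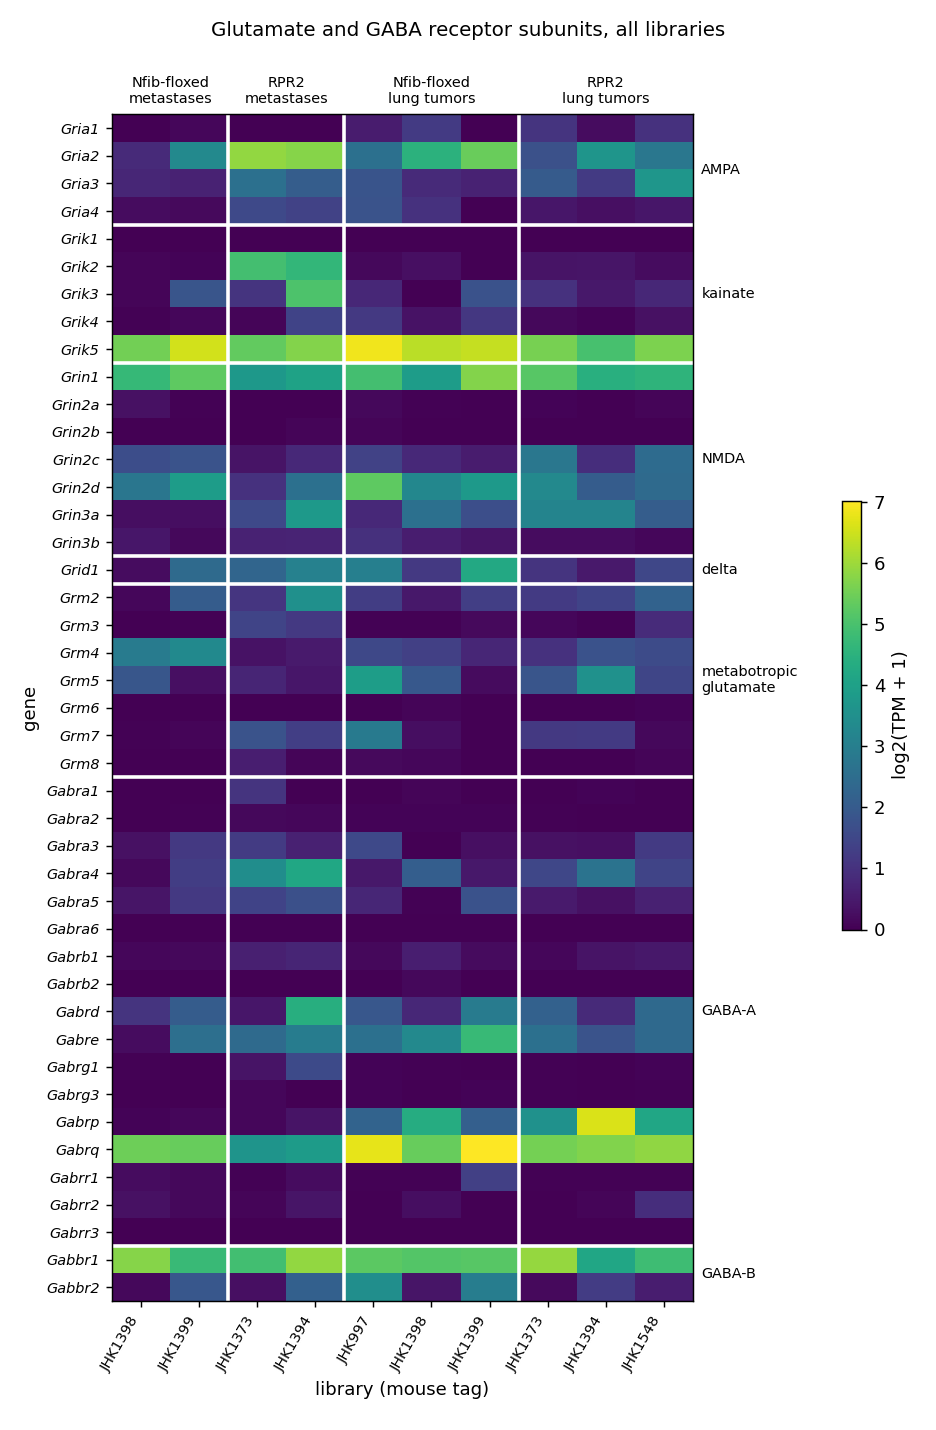
Level of 43 of the subunit genes (rows, ordered by receptor class) in the 10 libraries (columns, named by mouse tag and grouped by genotype and tissue), as log2(TPM + 1) on a color scale that starts at 0. Grik5 and Gabbr1 are bright in every column, Gabrq is dimmest in the 2 RPR2 metastases, and Grik2 is bright only there.

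The comparisons numbered 4, with an interaction. Between Nfib-floxed and RPR2 metastases, the kainate receptor gene Grik2 was lower and the metabotropic receptor gene Grm4 higher in Nfib-floxed metastases. These were 2 of the 23 tested subunits, where 2.04% of all tested genes passed in either direction, 1.13% higher and 0.91% lower. Between RPR2 metastases and RPR2 lung tumors, Grik2 was higher and the GABA-A genes Gabrp and Gabrq were lower in metastases, 3 of 23 subunits against 5.61% of all genes, 2.04% higher and 3.57% lower. These were 316 higher and 553 lower genes, and after quantile normalization 407 higher and 408 lower, with the same 3 subunits passing. No subunit passed between Nfib-floxed metastases and Nfib-floxed lung tumors, where 0.123% of all genes did, and none passed between Nfib-floxed and RPR2 lung tumors, where the share was 0%. At an unadjusted p under 0.05 there were 4 subunits in the comparison within Nfib-floxed mice (9.39% of all genes) and 5 between the lung tumors (7.93%). In the interaction, which asks whether the genotype difference was the same in metastases as in lung tumors, Grik2 passed with a negative value. There 0.581% of all genes passed, 0.49% with a positive and 0.0903% with a negative value. The comparisons that gave calls share the RPR2 metastases, so they are not independent of each other.

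The median change of the 23 tested subunits was -0.36 between Nfib-floxed and RPR2 metastases, where that of all genes was 0. It was 0.43 between RPR2 metastases and RPR2 lung tumors (all genes -0.15). It was -0.49 between Nfib-floxed metastases and lung tumors (all genes -0.05) and 0.10 between Nfib-floxed and RPR2 lung tumors (all genes -0.10). Subunits moved in both directions in each comparison. In the first, 8 subunits lay above 0 and 15 below, and in the second 15 above and 8 below. Both comparisons share the RPR2 metastases, so these counts are not independent. Grik2 and Grik3, which reached the filter only through the RPR2 metastases, are among the 15 each time.

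**Figure D2:**
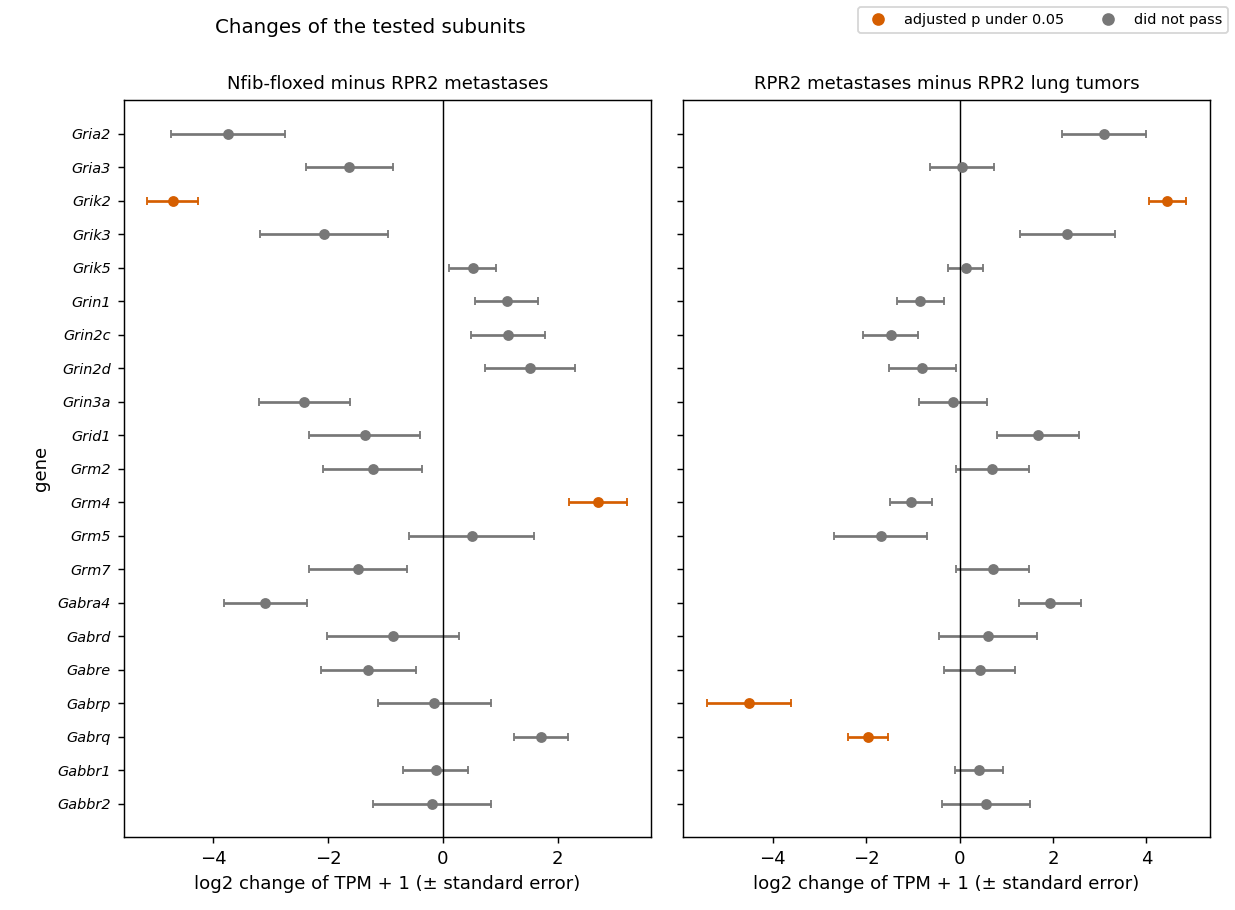
Difference of mean log2(TPM + 1) with its standard error for 21 of the tested subunits, between Nfib-floxed and RPR2 metastases (left) and between RPR2 metastases and RPR2 lung tumors (right), with genes that passed in orange and the others in gray. Grik2 lies at -4.70 on the left and 4.45 on the right.

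Kainate receptors are formed by GRIK1 to GRIK3, which can make channels on their own, and by GRIK4 and GRIK5, which in rodents need one of the first kind to function. Grik2 (ENSMUSG00000056073, chromosome 10, 49094833 to 49788766, minus strand, build GRCm38) encodes GluK2. It had 0.0667 and 0.0528 TPM in Nfib-floxed metastases (JHK1398 and JHK1399), against 29.5 and 24.0 TPM in RPR2 metastases (JHK1373 and JHK1394). In Nfib-floxed lung tumors it had 0.108 and 0.223 TPM (JHK997 and JHK1398) and was listed at 0 in that of JHK1399, and RPR2 lung tumors had 0.290, 0.328 and 0.179 TPM (JHK1373, JHK1394 and JHK1548). Both RPR2 metastases stood apart from all 8 other libraries, none of which reached 0.4 TPM. The lung tumors of the mice that gave these metastases, with 0.290 and 0.328 TPM, were the highest of the 6 lung tumors. These values are near 0 and of unknown depth, and the next was 0.223 TPM. A link between the lung tumor and metastasis of a mouse was not tested for Grik2.

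By limma, the log2 change of Grik2 was -4.70 ± 0.44 between Nfib-floxed and RPR2 metastases (adjusted p = 0.00107). Leaving out the JHK1398 metastasis gave -4.71 (adjusted p = 0.00711). Fitted on the 4 metastases alone, the same difference had an adjusted p of 0.133, with no gene of the table passing in that fit. Between RPR2 metastases and RPR2 lung tumors the change was 4.45 ± 0.40 (adjusted p = 0.000344), and with mouse as a fixed block 4.40 (adjusted p = 0.0166). The interaction was -4.51 ± 0.57 (adjusted p = 0.0102), leaving out the JHK1398 metastasis -4.52 (adjusted p = 0.0319), and with mouse as a fixed block -4.46 (adjusted p = 0.119). Because Grik2 passed the filter only through the RPR2 metastases, a difference there was built into its being tested. Without strand information, and with noncoding genes annotated within Grik2 on its own strand, reads of these genes cannot always be told apart.

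The proximal promoter of Grik2 is shown because this gene had the smallest adjusted p of the subunits in both comparisons that gave calls, and because the genotype concerns a transcription factor whose family binds the letters TTGGC. The windows hold 250 bases before and 50 after the start in RefSeq (GRCm38.p6), and were found for 3 of the 4 subunits that passed. Capitals mark TTGGC or its complement GCCAA.
Grik2, chr10:49788705-49789004, minus strand: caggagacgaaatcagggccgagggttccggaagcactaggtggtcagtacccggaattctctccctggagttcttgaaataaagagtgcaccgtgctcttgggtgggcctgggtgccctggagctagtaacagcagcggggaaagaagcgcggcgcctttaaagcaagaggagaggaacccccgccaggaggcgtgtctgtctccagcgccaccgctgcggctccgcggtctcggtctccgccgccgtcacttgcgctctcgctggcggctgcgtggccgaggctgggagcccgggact
Gabrq, chrX:72824928-72825227, plus strand: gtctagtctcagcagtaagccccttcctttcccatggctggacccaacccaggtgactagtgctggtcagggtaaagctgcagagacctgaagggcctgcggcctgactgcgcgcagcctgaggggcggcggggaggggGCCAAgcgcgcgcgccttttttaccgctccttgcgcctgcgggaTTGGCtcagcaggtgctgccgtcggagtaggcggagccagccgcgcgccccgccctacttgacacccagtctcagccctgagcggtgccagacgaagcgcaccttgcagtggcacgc
Gabrp, chr11:33578908-33579207, minus strand: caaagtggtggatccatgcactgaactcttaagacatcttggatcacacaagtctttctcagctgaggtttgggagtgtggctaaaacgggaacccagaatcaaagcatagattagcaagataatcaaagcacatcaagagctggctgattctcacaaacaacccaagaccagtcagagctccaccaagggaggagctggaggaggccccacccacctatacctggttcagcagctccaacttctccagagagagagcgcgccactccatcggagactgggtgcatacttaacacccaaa
The window of Gabrq held 2 such matches, beginning at bases 140 and 184 counted from 1 at its 5′ end, and those of Grik2 and Gabrp held none. On either strand, TTGGC occurred in 46.7% of all 32851 windows and in 18 of the 39 windows of the subunit genes. The full palindrome, TTGGC and GCCAA with 5 bases of any kind between them, overlaps the shorter motif. It occurred in 12 of all windows and in none of the 39. These are descriptions of the letters in the windows.

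Grik5, which encodes GluK5, was the main kainate gene in every library. It had 45.5 and 92.2 TPM in Nfib-floxed metastases, against 39.3 and 51.4 TPM in RPR2 metastases. Nfib-floxed lung tumors had 116, 77.8 and 84.4 TPM, against 47.2, 30.4 and 48.3 TPM in RPR2 lung tumors. The lung tumor groups did not overlap, but the difference missed the threshold (log2 change 1.13 ± 0.33, adjusted p = 0.595).

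Grik3 (GluK3) had 0.0767 and 2.64 TPM in Nfib-floxed metastases, against 1.07 and 32.1 TPM in RPR2 metastases. Lung tumors had 0.714, 0.00741 and 2.40 TPM in Nfib-floxed mice and 0.998, 0.370 and 0.727 TPM in RPR2 mice. Its high value was thus found in the RPR2 metastasis of JHK1394 alone, and no comparison passed (log2 change -2.06 ± 1.12 between metastases, adjusted p = 0.507). It did pass between RPR2 metastases and RPR2 lung tumors when the RPR2 metastasis of JHK1373 was left out, which leaves that of JHK1394 alone in its group. Grik1 was listed at 0 in 9 of the libraries and at 0.0182 TPM in the other. Grik4 ranged up to 1.67 TPM.

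Sums and shares of the kainate genes restate these values and were not tested. Grik2 and Grik3 both reached the filter only through the RPR2 metastases, so a different makeup there is no separate result. Of the sum of Grik1 to Grik3, Grik2 made up 96.4% in the RPR2 metastasis of JHK1373. In that of JHK1394, Grik3 made up 57.2%. Grik1, Grik2 and Grik3 together summed to 0.143 and 2.69 TPM in Nfib-floxed metastases, against 30.6 and 56.1 TPM in RPR2 metastases. In lung tumors they summed to 0.821, 0.230 and 2.40 TPM (Nfib-floxed) and to 1.29, 0.698 and 0.907 TPM (RPR2). Grik5 made up 95.9% to 99.6% of kainate receptor TPM in the 8 libraries other than the RPR2 metastases, and 56.2% and 47.1% in the RPR2 metastases.

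**Figure D3:**
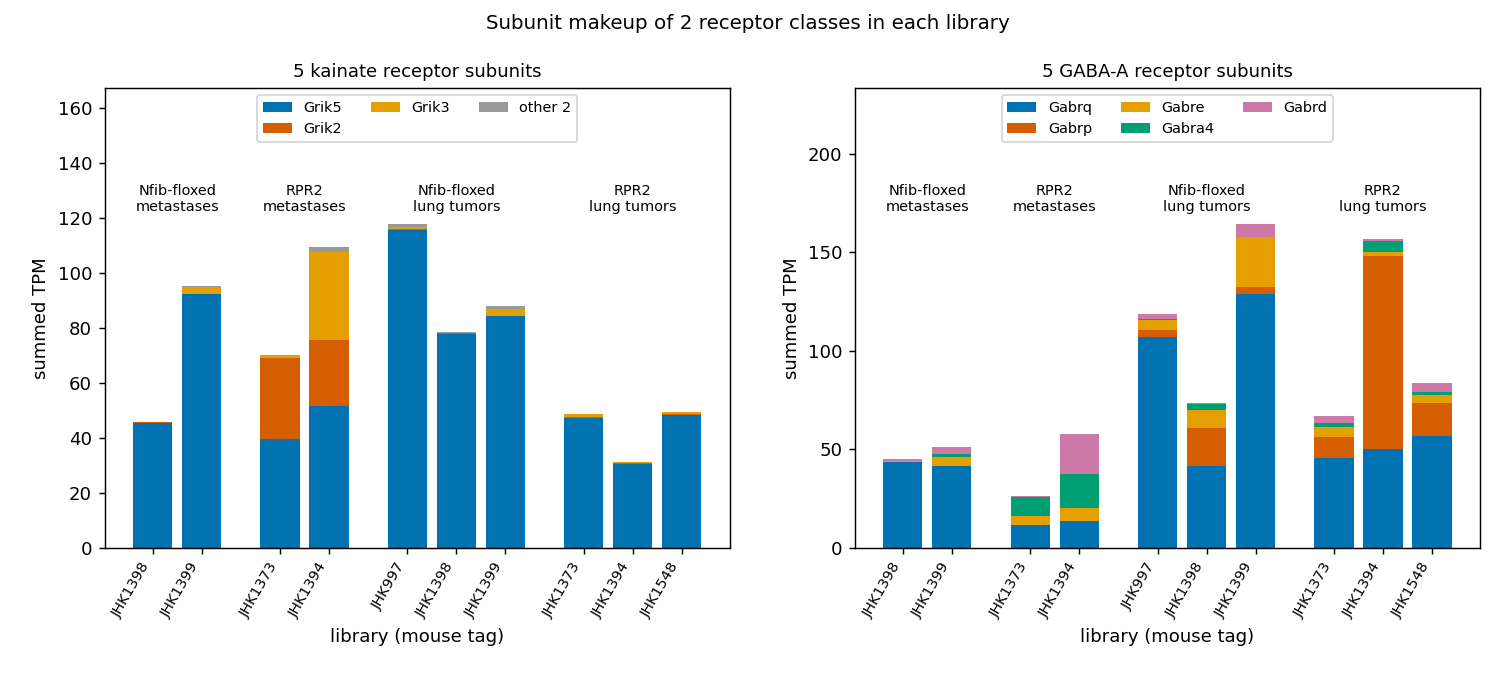
Summed TPM in each library of the 5 kainate receptor genes (left, the other 2 genes in gray) and of 5 GABA-A receptor genes (right), with bars stacked by gene and starting at 0. Grik2 fills 29.5 and 24.0 TPM of the bars of the RPR2 metastases, and Gabrp 97.7 TPM of that of the RPR2 lung tumor of JHK1394.

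Among AMPA receptor genes, Gria2 (GluA2, the subunit whose edited form makes the channel nearly impermeable to calcium) was highest. It had 0.776 and 8.85 TPM in Nfib-floxed metastases, against 58.2 and 52.1 TPM in RPR2 metastases. It had 5.02, 21.8 and 41.4 TPM in Nfib-floxed lung tumors, against 2.33, 11.6 and 5.86 TPM in RPR2 lung tumors. The RPR2 metastases lay above every other library, but the wide spread elsewhere left each change short of the threshold. The log2 change was -3.74 ± 0.99 between the metastases (adjusted p = 0.0877; leaving out the JHK1398 metastasis -2.51, adjusted p = 0.350), 3.09 ± 0.90 between RPR2 metastases and lung tumors (adjusted p = 0.0790), and -5.19 ± 1.28 for the interaction (adjusted p = 0.152). The change between RPR2 metastases and lung tumors passed without the Nfib-floxed lung tumor of JHK997 and when these 2 groups were fitted alone.

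Gria3 had 0.683 and 0.586 TPM in Nfib-floxed metastases, against 5.02 and 3.23 TPM in RPR2 metastases. In lung tumors it had 2.52, 0.774 and 0.599 TPM (Nfib-floxed) and 3.01, 1.27 and 11.9 TPM (RPR2). Gria4 had 0.181 and 0.140 TPM in Nfib-floxed metastases and 1.95 and 1.61 TPM in RPR2 metastases, and 2.48, 1.0 and 0 TPM in Nfib-floxed lung tumors against 0.345, 0.213 and 0.341 TPM in RPR2 lung tumors. Metastases of the genotypes did not overlap for either gene, while the lung tumors did for both. Gria3 did not pass (-1.63 ± 0.76 between metastases, adjusted p = 0.411), Gria4 was below the filter, and Gria1 stayed at or below 1.27 TPM.

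For NMDA receptors, which need GRIN1 with a GRIN2 or GRIN3 partner, Grin1 had 25.1 and 38.1 TPM in Nfib-floxed metastases, against 12.4 and 15.4 TPM in RPR2 metastases. Lung tumors had 29.2, 13.7 and 52.0 TPM in Nfib-floxed mice and 35.6, 20.6 and 22.7 TPM in RPR2 mice. The metastases did not overlap between genotypes, and the change of 1.11 ± 0.55 did not pass (adjusted p = 0.458).

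The GRIN2 partner was chiefly Grin2d (GluN2D). It had 5.72 and 13.7 TPM in Nfib-floxed metastases and 0.996 and 5.01 TPM in RPR2 metastases, with 38.0, 8.60 and 13.0 TPM in Nfib-floxed lung tumors and 8.85, 3.14 and 4.38 TPM in RPR2 lung tumors. Grin2a and Grin2b, the main partners in the adult forebrain, stayed at or below 0.253 and 0.0661 TPM. Grin2c ranged from 0.281 to 5.90 TPM, with 2.16 and 2.45 TPM in Nfib-floxed metastases and 0.281 and 0.747 TPM in RPR2 metastases (1.14 ± 0.64, adjusted p = 0.533).

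Grin3a, an inhibitory partner, had 0.195 and 0.187 TPM in Nfib-floxed metastases, against 1.90 and 12.9 TPM in RPR2 metastases. Lung tumors had 0.766, 5.0 and 2.22 TPM (Nfib-floxed) and 8.05, 7.93 and 3.23 TPM (RPR2). Both Nfib-floxed metastases were lower than all other libraries, without passing (-2.41 ± 0.80 between metastases, adjusted p = 0.181; leaving out the JHK1398 metastasis -2.42, adjusted p = 0.347). Grin3b stayed below 1 TPM. No NMDA gene passed in any comparison.

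Delta receptors are bound by cerebellins at synapses rather than opened by glutamate. Grid1 had 0.175 and 4.33 TPM in Nfib-floxed metastases and 3.87 and 7.49 TPM in RPR2 metastases, with 7.15, 1.25 and 17.9 TPM in Nfib-floxed lung tumors and 1.08, 0.395 and 1.83 TPM in RPR2 lung tumors. The genotypes overlapped in both tissues, and Grid1 passed in no comparison (-1.36 ± 0.97 between metastases, adjusted p = 0.675).

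Metabotropic receptors fall into a group coupled to phospholipase C (which includes Grm5) and groups that lower cyclic AMP (Grm2 and Grm3, and Grm4 with Grm6 to Grm8). Grm4 (ENSMUSG00000063239, chromosome 17, 27422387 to 27521403, minus strand) had 6.57 and 9.05 TPM in Nfib-floxed metastases, against 0.260 and 0.413 TPM in RPR2 metastases. Nfib-floxed lung tumors had 1.87, 1.51 and 0.681 TPM and RPR2 lung tumors 0.991, 2.43 and 2.04 TPM. The Nfib-floxed metastases were the highest of all libraries and the RPR2 metastases the lowest.

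Between the metastases the log2 change of Grm4 was 2.71 ± 0.50 by limma (adjusted p = 0.0246). The call did not survive the loss of any single metastasis: adjusted p was 0.0724 with the JHK1398 and 0.0890 with the JHK1399 Nfib-floxed metastasis left out, and 0.103 with the JHK1373 and 0.115 with the JHK1394 RPR2 metastasis left out, with log2 changes of 2.51 to 2.91. Against Nfib-floxed lung tumors the Nfib-floxed metastases differed by 1.92 ± 0.46 (adjusted p = 0.221), and the interaction was 2.97 (adjusted p = 0.101).

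Grm5 had 2.69 and 0.232 TPM in Nfib-floxed metastases and 0.667 and 0.354 TPM in RPR2 metastases, with 14.1, 2.84 and 0.152 TPM in Nfib-floxed lung tumors and 2.58, 10.6 and 1.76 TPM in RPR2 lung tumors. Grm2 had 0.0810 and 3.08 TPM in Nfib-floxed metastases and 1.11 and 10.4 TPM in RPR2 metastases, with 1.41, 0.368 and 1.48 TPM in Nfib-floxed lung tumors and 1.27, 1.64 and 3.60 TPM in RPR2 lung tumors. Neither passed in any comparison, and groups overlapped in both tissues. Grm7 ranged from 0 to 6.27 TPM with its highest value in the Nfib-floxed lung tumor of JHK997.

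Below the filter, Grm3 had 0 and 0.0198 TPM in Nfib-floxed metastases, against 1.71 and 1.25 TPM in RPR2 metastases. With no filter it came closest of the low subunits to passing between metastases (-1.29 ± 0.25, adjusted p = 0.0552), and no low subunit passed in any comparison there. Grm6 and Grm8 stayed at or below 0.0637 and 0.510 TPM.

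GABA-A receptors of the brain mostly join alpha, beta and gamma or delta subunits, whereas the theta, pi and epsilon subunits have narrower patterns. Of 19 genes only 6 reached the filter, among them Gabrq (theta), Gabrp (pi), Gabre (epsilon), Gabrd (delta) and Gabra4 (alpha). Gabrq (ENSMUSG00000031344, chromosome X, 72825178 to 72842602, plus strand), the theta subunit gene, had 43.7 and 41.3 TPM in Nfib-floxed metastases, against 11.3 and 13.3 TPM in RPR2 metastases. It had 107, 41.3 and 129 TPM in Nfib-floxed lung tumors and 45.5, 50.2 and 56.6 TPM in RPR2 lung tumors. The RPR2 metastases lay below all other libraries. Against RPR2 lung tumors their log2 change was -1.96 ± 0.43 by limma (adjusted p = 0.0250), and with mouse as a fixed block -1.88 (adjusted p = 0.0969).

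The Gabrq call was lost when any single RPR2 library was left out, and with no filter on low values (adjusted p = 0.0553). The adjusted p was 0.171 and 0.126 without the metastasis of JHK1373 or JHK1394, and 0.0578, 0.0748 and 0.0762 without the lung tumor of JHK1373, JHK1394 or JHK1548. Between Nfib-floxed and RPR2 metastases the change was 1.71 ± 0.47 and did not pass (adjusted p = 0.105). Gabre and Gabra3, its neighbors on chromosome X, were not lowest in the RPR2 metastases as Gabrq was. Gabre had 0.169 and 4.88 TPM in Nfib-floxed metastases, 4.42 and 6.70 TPM in RPR2 metastases, and 2.45 to 25.4 TPM in lung tumors. Its highest value was in the Nfib-floxed lung tumor of JHK1399, where Gabrq was also highest. Gabra3 stayed at or below 1.93 TPM.

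Gabrp (ENSMUSG00000020159, chromosome 11, 33550781 to 33578959, minus strand), the pi subunit gene, is known from epithelia outside the brain. It had 0.0574 and 0.0957 TPM in Nfib-floxed metastases, against 3.75, 19.5 and 3.39 TPM in Nfib-floxed lung tumors (JHK997, JHK1398 and JHK1399). RPR2 metastases had 0.0932 and 0.301 TPM, against 10.7, 97.7 and 16.7 TPM in RPR2 lung tumors (JHK1373, JHK1394 and JHK1548). Metastases and lung tumors did not overlap in either genotype.

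In RPR2 mice the log2 change of Gabrp was -4.52 ± 0.90 by limma (adjusted p = 0.0154). Without the 2 lung tumors richest in club cell transcripts, an alternative chosen after seeing the data, it was -3.59 (adjusted p = 0.00950). The RPR2 lung tumors that remained still had 9211 and 12674 TPM over the club cell markers, so this fit cannot separate Gabrp from club cells. The call was lost without the metastasis of JHK1373 or JHK1394, which leaves 1 RPR2 metastasis. The call was also lost with a pseudocount of 5 (-2.65, adjusted p = 0.0677) and with no filter on low values (adjusted p = 0.0571). In Nfib-floxed mice the change was -2.81 ± 0.90 (adjusted p = 0.372), and the interaction of 1.71 had an adjusted p of 0.790, so a difference between the genotypes was not shown. Club cell markers moved with Gabrp. The 5 genes of that list, all above 0 in every library, summed to 9.88 and 42.5 TPM in Nfib-floxed metastases and 22.9 and 197 TPM in RPR2 metastases, against 1677 to 55984 TPM in Nfib-floxed and 9211 to 60565 TPM in RPR2 lung tumors. The lung tumor with the highest Gabrp in each genotype also had the highest club cell sum. The sum of 5 alveolar type 2 cell markers was also lower in metastases, and highest in the same lung tumors. It was 28 and 46.9 TPM in Nfib-floxed and 17.5 and 57.7 TPM in RPR2 metastases. Lung tumors had 149 to 3008 TPM (Nfib-floxed) and 253 to 7498 TPM (RPR2). Of these markers Abca3 alone overlapped between the tissues. It had 45.3 TPM in the Nfib-floxed metastasis of JHK1399, most of the sum there, and 31.8 TPM in the Nfib-floxed lung tumor of JHK1398. The part of these cells in the Gabrp levels was not tested, and in bulk tissue fewer cells of a type and less RNA per cell cannot be told apart.

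**Figure D4:**
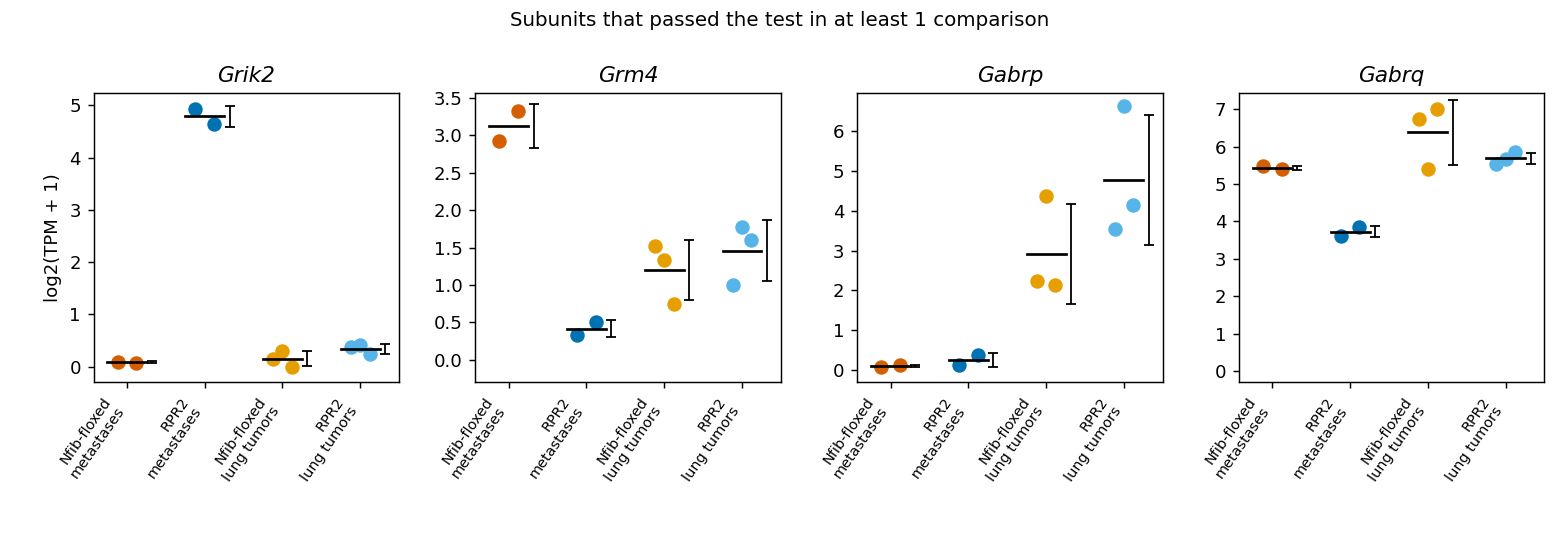
Levels of Grik2, Grm4, Gabrp and Gabrq as log2(TPM + 1) in the 4 groups, with 1 point per library, the mean as a horizontal line and the SD as a bracket beside it, and a vertical scale of its own in each panel. Grik2 exceeds 20 TPM in both RPR2 metastases and stays under 0.4 TPM in all other libraries.

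Among alpha subunit genes Gabra4 had the highest mean level. It had 0.10 and 1.44 TPM in Nfib-floxed metastases, against 9.78 and 17.1 TPM in RPR2 metastases. Lung tumors had 0.370, 3.28 and 0.364 TPM (Nfib-floxed) and 1.81, 5.43 and 1.70 TPM (RPR2). The RPR2 metastases were the highest of all libraries, and the change of -3.09 ± 0.73 between metastases missed the threshold (adjusted p = 0.0610). Leaving out the JHK1398 metastasis it was -2.52 (adjusted p = 0.245). With all 4 metastases kept, it passed with a pseudocount of 5, without the Nfib-floxed lung tumor of JHK1398, and without both lung tumors rich in club cell transcripts.

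The other alpha genes stayed at or below 2.43 TPM, and Gabra6 was listed at 0 throughout. Gabrd had 1.07 and 3.15 TPM in Nfib-floxed metastases and 0.352 and 20.1 TPM in RPR2 metastases, so its high value was again in the metastasis of JHK1394 alone. The rho genes stayed at or below 1.5 TPM.

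GABA-B receptors are pairs of GABBR1, which binds GABA, and GABBR2, which carries the pair to the surface and couples to the G protein. Gabbr1 had 52.9 and 26.2 TPM in Nfib-floxed metastases and 28.8 and 57.8 TPM in RPR2 metastases, with 37.3, 34.0 and 35.4 TPM in Nfib-floxed lung tumors and 58.8, 16.8 and 27.6 TPM in RPR2 lung tumors. Gabbr2 had 0.118 and 2.77 TPM in Nfib-floxed metastases and 0.231 and 3.43 TPM in RPR2 metastases, with 10.1, 0.309 and 6.90 TPM in Nfib-floxed lung tumors and 0.134, 1.36 and 0.487 TPM in RPR2 lung tumors. Gabbr2 was thus below Gabbr1 in all 10 libraries. Neither gene passed, and for Gabbr2 the change between Nfib-floxed and RPR2 lung tumors was 1.62 ± 0.84 (adjusted p = 0.637).

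Partner proteins of these receptors were taken from 10 lists with 76 genes, of which 50 were tested. Between Nfib-floxed and RPR2 metastases 3 were lower and none higher, where 0.91% of all tested genes were lower and 1.13% higher. Between RPR2 metastases and RPR2 lung tumors 2 were higher and 1 lower, where 2.04% of all tested genes were higher and 3.57% lower. Cacng7, a TARP auxiliary subunit of AMPA receptors, had 0.990 and 3.10 TPM in Nfib-floxed metastases, against 125 and 156 TPM in RPR2 metastases (-5.62 ± 1.21, adjusted p = 0.0441). It was uneven among lung tumors, with 1.63 to 24.1 TPM in Nfib-floxed and 3.47 to 57.4 TPM in RPR2 ones. Of the other AMPA auxiliary genes Cacng4 had 8.90 and 12 TPM in Nfib-floxed and 45.8 and 49.3 TPM in RPR2 metastases without passing (adjusted p = 0.0991). Beside the higher Grik2, the kainate auxiliary gene Neto1 was lower in RPR2 metastases (7.09 and 7.89 TPM) than in RPR2 lung tumors (35.6, 41.2 and 27.7 TPM), by -2.06 ± 0.48 (adjusted p = 0.0318), and Neto2 did not pass.

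Slc6a13 (GAT2), a membrane transporter of GABA that mouse hepatocytes also express, had 0.421 and 1.95 TPM in Nfib-floxed metastases and 10.8 and 9.70 TPM in RPR2 metastases (-2.45 ± 0.52, adjusted p = 0.0432).

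RPR2 lung tumors had 0.131, 1.03 and 0.509 TPM of Slc6a13 (2.89 ± 0.48 for RPR2 metastases against these, adjusted p = 0.00659). The sum of 10 hepatocyte markers was highest in the RPR2 metastases. These genes summed to 111 and 2781 TPM in Nfib-floxed metastases and to 9713 and 9654 TPM in RPR2 metastases. In lung tumors they summed to 99.2 to 1251 TPM (Nfib-floxed) and 156 to 446 TPM (RPR2). Ttr was an exception among them, with 1107 TPM in the Nfib-floxed lung tumor of JHK1399 against 221 and 458 TPM in RPR2 metastases. It made up most of the 1251 TPM in that lung tumor. The other markers were each higher in both RPR2 metastases than in any other library. Grik2 and Grm4 lie in the same comparison of metastases, and the part of liver cells in any of these differences was not tested.

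The partner calls were fragile. Leaving out the JHK1398 metastasis gave changes between metastases of -5.10 for Cacng7 (adjusted p = 0.187) and -1.93 for Slc6a13 (0.178). Of the alternatives run, Cacng7 passed in 9 of 20 (adjusted p 0.00876 to 0.226). In the same comparison Slc6a13 passed in 8 of 19 (adjusted p 0.0101 to 0.219). Among the single libraries that ended a call were lung tumors outside this comparison, through the shared estimate of spread. Between RPR2 metastases and RPR2 lung tumors, the Neto1 call was lost without any one RPR2 library (adjusted p 0.0595 to 0.190). That of Slc6a13 was lost without the metastasis of JHK1373 (0.0524) or JHK1394 (0.0511). With mouse as a fixed block, the calls between RPR2 metastases and RPR2 lung tumors were lost for Neto1 (adjusted p = 0.0598) and Slc6a13 (0.0567).

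No gene of the scaffold, adhesion, cerebellin, GABA-B auxiliary, GABA-A partner, glutamate synthesis and transport or glycine receptor lists passed in any comparison. Gad1, which makes GABA, ranged from 0.408 to 39.1 TPM without following the groups: it had 22.9 and 0.959 TPM in Nfib-floxed metastases and 13.4 and 0.408 TPM in RPR2 metastases. Its lung tumor values were 38.1, 39.1 and 0.712 TPM (Nfib-floxed) and 17.6, 20.9 and 11.1 TPM (RPR2). The Nfib-floxed mouse JHK1399 was low in both its lung tumor and its metastasis.

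Of other cell types that the tissue could hold, the 6 neuronal markers summed to 391 and 203 TPM in Nfib-floxed metastases and 210 and 279 TPM in RPR2 metastases, and to 142 to 387 TPM in Nfib-floxed and 205 to 311 TPM in RPR2 lung tumors. Snap25 alone, which neuroendocrine cells also express, had 279 and 171 TPM in Nfib-floxed metastases and 89.5 and 102 TPM in RPR2 metastases. The other 5, summed apart from it after the values were seen, came to 111 and 32.2 TPM in Nfib-floxed metastases and 121 and 177 TPM in RPR2 metastases, and to 5.54 to 26.3 TPM in Nfib-floxed and 10.9 to 73.8 TPM in RPR2 lung tumors. Without Snap25 the sum was highest in the RPR2 metastases, but 111 TPM (JHK1398) lay close to 121 TPM (JHK1373). Grik2 had 0.0667 and 29.5 TPM in these 2 metastases. Of the 5 markers, Rbfox3, Nefl and Camk2a were also lower in that of JHK1398 (0.179, 0.477 and 0.332 TPM) than in that of JHK1373 (4.73, 8.92 and 7.90 TPM). Nefm was higher there (14.3 against 3.63 TPM), and Tubb3 was alike. Most of the sum was Tubb3, with 96.1 and 26.0 TPM in Nfib-floxed and 95.6 and 129 TPM in RPR2 metastases. Rbfox3 overlapped, with 0.179 and 4.93 TPM in Nfib-floxed metastases against 4.73 and 44.4 TPM in RPR2 metastases. Nefl was highest in the RPR2 metastasis of JHK1373 (8.92 TPM). Nefm was highest in the Nfib-floxed metastasis of JHK1398 (14.3 TPM), and Camk2a in the RPR2 lung tumor of JHK1548 (16.9 TPM). In metastases Camk2a did not overlap, with 0.332 and 1.06 TPM in Nfib-floxed and 7.90 and 2.61 TPM in RPR2 ones. Of glial markers, Sox10 was at 0 in all 4 metastases. The part of nerve cells in these differences was not tested.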

How the data were processed

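PolyA RNA libraries were prepared with the NEBNext Ultra II kit, per the labels' protocols. The submitters' processing notes name Salmon 0.12.0, bcl2fastq 2.20, R 4.1.0 and build GRCm38. The sources used here name no annotation version, setting or strand. The authors deposited 1 table of TPM per gene, in which every column totals 1000000, so no depth or counting interval can be given.

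Group means of log2(TPM + 1) over all 10 libraries were fitted with limma 3.58.1 (R 4.3.3, mean trend, two-sided, Benjamini-Hochberg over 15503 genes; 6 residual degrees of freedom). Alternatives were other pseudocounts and filters, quantile normalization, median centring, robust moderation, mouse as a block, only the 2 groups compared, and each library left out. The lung tumor and metastasis of a mouse were taken as independent. They are pairs by mouse tag, and their deviations from group means correlated at -0.023, -0.008, 0.043 and 0.049 (JHK1373, JHK1394, JHK1398, JHK1399). Libraries within a group came from separate mice.

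Positions are from GENCODE M21, in which all 47 symbols matched, and promoters from RefSeq. Python 3.11.15 with pandas 2.3.3 and matplotlib 3.10.9 was used. Given in every library are subunits that passed and the 3 highest of each class; partners are named where they passed, and others were named after their values were seen. Some genes are not reported here. The members and lists were chosen with earlier results of these data known.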

Additional observations from a re-analysis of the deposited data

Results flagged for a closer look

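For Grik2 the genotype difference in metastases minus that in lung tumors was -4.51 on the log2 scale (limma interaction, adjusted p = 0.0102). The difference was -4.70 in metastases and -0.19 in lung tumors, where all 6 libraries were under 0.4 TPM. Leaving out the JHK1398 metastasis it was -4.52 (adjusted p = 0.0319). With mouse as a fixed block the interaction had an adjusted p of 0.119. The call was also lost with a pseudocount of 0.1 and with a filter of 5 TPM. Over the alternatives the interaction ran from -6.46 to -2.60. Grik2 was tested only through its level in the RPR2 metastases.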

How the results depend on the processing

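No alternative run turned the direction of a called gene. The alternatives reuse the same libraries, so they are not independent support. Grik2 met the filter only through the RPR2 metastases, where it was high, and most alternatives kept a filter of that kind. Grik2 passed between RPR2 metastases and RPR2 lung tumors in all 21 alternatives run, and between Nfib-floxed and RPR2 metastases in 19 of 20 (adjusted p 0.000314 to 0.133). Between Nfib-floxed and RPR2 metastases, where 2 subunits passed, the count was 1 with a filter of 5 TPM, which removes Grm4, 0 when the 4 metastases were fitted alone, and 4 without both lung tumors rich in club cell transcripts, an alternative chosen after seeing the data. Leaving out single libraries gave 1 to 4, with 4 without the Nfib-floxed lung tumor of JHK1398 (Gabra4 and Gabrq added) and 1 without any single metastasis. Between RPR2 metastases and RPR2 lung tumors, where 3 passed, the count was 1 with no filter, and 1 to 4 without single libraries, with 1 without the metastasis of JHK1394 and 4 without the Nfib-floxed lung tumor of JHK997 (Gria2 added). The interaction count of 1 fell to 0 with a pseudocount of 0.1, with a filter of 5 TPM and with mouse as a fixed replicate block. The cause was not tested. The replicate block as a random effect (mouse correlation 0.0509) changed no call of a subunit, and the fixed block also ended that of Gabrq. Over the called genes, partners included, 69 of 241 alternative values missed the threshold. Quantile normalization moved the median of all genes between RPR2 metastases and lung tumors from -0.15 to 0.05, and the split of calls from 316 higher and 553 lower to 407 and 408; median centring gave 394 and 382. The same 3 subunits passed in both. TPM without depth limits what can be said of genes near 0.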
